A study of Mus musculus with 9 samples.

Results

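The Hippo pathway was examined through 10 genes: the coactivators Yap1 and Wwtr1 (which encodes TAZ), the DNA-binding partners Tead1 and Tead4, the LIM-domain adaptor Ajuba, and the target genes Ccn1 (formerly Cyr61), Ccn2 (formerly Ctgf), Ankrd1, Amotl2 and Lats2. They were taken by symbol from a table of 52264 gene rows, and all 10 were present and passed the filter on low counts, as did 15366 rows in all. The libraries were made from mouse embryonic stem cells (ESCs) labelled as lacking β-catenin (beta-catenin-/-), a genotype that every group shares. The cells had been expanded on feeder-treated dishes with 40 ng/ml LIF, a cytokine, 3 µM CHIR-99021 and 1 µM PD03, which inhibits MEK, and were moved to N2B27 medium the night before RNA extraction. The groups of 3 libraries were an untreated control, BRD0705 and CHIR, each handled for 30 min, at inhibitor doses the labels leave out. BRD0705 selectively inhibits the kinase GSK3α, while CHIR (CHIR-99021) blocks both GSK3α and its paralog GSK3β. The labels do not say whether the 3 libraries of a group came from separate cultures or from how many clones, so p-values measure the spread between these libraries only. All groups, control included, had been expanded with CHIR. The labels also do not say whether inhibitors stayed in the overnight medium or whether feeder cells were present at harvest. No line with intact β-catenin was analysed here.

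The Hippo pathway is a kinase cascade in which MST1/2 (genes Stk4 and Stk3) activate LATS1/2, and the LATS kinases phosphorylate YAP and TAZ, which keeps them out of the nucleus or marks them for degradation. YAP and TAZ that reach the nucleus bind TEAD factors and raise transcription of Ccn1, Ccn2, Ankrd1, Amotl2 and Lats2. Amotl2 and Lats2 in turn restrain YAP and TAZ, a negative feedback. GSK3 and the β-catenin destruction complex have been linked to the turnover of TAZ and YAP. In fibroblasts attached to a stiff dish the pathway's targets are strongly transcribed, so that feeder cells are a possible source of these transcripts in a stem cell culture.

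TEAD factors recognise the letters GGAATG, or CATTCC on the other strand. These letters were searched on both strands in 300-base windows that run from 250 bases before to 50 bases after a RefSeq start site (build GRCm38.p6). The windows of 7 of the 10 genes were matched, and Ccn2, Tead1 and Tead4 had no entry. All 7 matched genes held the letters in at least 1 window, against 16.6% of the 27025 genes in the table. Ankrd1 and Ajuba each held them at 2 places, as did 1.36% of all windows. The stretches below show each place in the gene's own direction, 5′ to 3′, with the match in capitals, because the target genes among them are those whose levels are described next.

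Ccn1, 103 bases before the start, chr3:145650071-145650100, minus strand: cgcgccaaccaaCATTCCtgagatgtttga

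Ankrd1, 210 bases before the start, chr19:36120037-36120066, minus strand: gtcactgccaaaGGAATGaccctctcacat

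Ankrd1, 123 bases before the start, chr19:36119950-36119979, minus strand: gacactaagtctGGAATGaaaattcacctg

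Amotl2, 65 bases before an internal start, chr9:102717727-102717756, plus strand: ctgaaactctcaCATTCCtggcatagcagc

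Lats2, 5 bases after an internal start, chr14:57746102-57746131, minus strand: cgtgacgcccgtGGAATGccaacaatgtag

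Ajuba, 186 bases before the start, chr14:54577830-54577859, minus strand: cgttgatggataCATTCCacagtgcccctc

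Ajuba, 164 bases before the start, chr14:54577808-54577837, minus strand: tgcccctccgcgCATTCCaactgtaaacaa

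Yap1, 141 bases before an internal start, chr9:8004720-8004749, minus strand: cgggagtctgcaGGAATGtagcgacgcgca

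Wwtr1, 170 bases before an internal start, chr3:57576029-57576058, minus strand: ggtaaactcaaaGGAATGcagataggcgct

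The longer stretch of Ccn1, the 250 bases before its start (chr3:145649986-145650235, minus strand), shows the match in its setting.

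Ccn1 promoter: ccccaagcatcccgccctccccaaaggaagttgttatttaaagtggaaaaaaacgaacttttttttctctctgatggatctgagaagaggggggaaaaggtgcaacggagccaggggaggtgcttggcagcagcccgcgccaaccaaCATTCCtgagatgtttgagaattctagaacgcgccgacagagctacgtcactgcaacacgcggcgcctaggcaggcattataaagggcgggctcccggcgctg

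None of the 9 windows of these genes held the AP-1 letters TGANTCA, which were in 7.81% of all windows, or the CArG box of serum response factor, which was in 1.63%. The starts used for Amotl2, Lats2 and Yap1, and the one in the Wwtr1 line, belong to transcripts that begin downstream of the gene's first base, and the Amotl2 and Lats2 stretches lie inside the gene. The second Lats2 start has a window with no match to GGAATG, and the second Wwtr1 start lies so that the same match is 136 bases before it. A match is a string of letters and was not tested for binding.

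Libraries held 17359422 to 20773337 counts. Ctnnb1, the gene named in the genotype, had 5657 to 7457 counts per library and did not pass the test in any comparison. Counts over the whole gene do not show whether part of it is deleted, so they do not check the genotype. Markers of stem cells and of fibroblasts were both abundant. The 12 embryonic stem cell markers summed to 5420 to 5515 CPM (a count relative to the library's total, as edgeR's cpm function gives it with TMM factors) in control, 5437 to 5579 CPM with BRD0705 and 5590 to 5769 CPM with CHIR. The 14 fibroblast markers, all with counts in each library, summed to 2993 to 3462 CPM in control, 3743 to 3832 CPM with BRD0705 and 3291 to 4045 CPM with CHIR. Col1a1, the main chain of type I collagen, was the most abundant of them, at 1388 CPM on average in control. Trophectoderm and primitive endoderm are the other early lineages in which these genes act, and their markers had far lower sums. Of 8 trophectoderm markers 6 were tested, and these 6 summed to 39.6 to 49.8 CPM over the libraries. Eomes was at 221 to 311 counts, and Cdx2 and Elf5, the untested pair, at 0 to 4 and 3 to 9 counts. Of 7 primitive endoderm markers 5 were tested, and these 5 summed to 16.3 to 24.8 CPM. Dab2 was at 125 to 193 counts, and the untested Sox17 and Foxa2 at 2 to 13 and 0 to 1 counts. In such bulk RNA, fewer cells of a type and less RNA per cell cannot be told apart. A library's deviation from the mean of all libraries also varied with transcript GC content, with a Spearman correlation across genes of -0.287 to 0.187 in control, 0.0794 to 0.279 with BRD0705 and -0.121 to -0.0641 with CHIR.

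Per kilobase of exon, the 10 genes ranged from percentile 92.3 to percentile 29.5 of all tested genes. Ccn2 stood highest, at 29.8 ± 4.09 CPM per kb (SD, n = 9 libraries). Ajuba followed at 26.1 ± 1.14 CPM per kb, and the ranges of these genes over the libraries overlapped. Ccn1 at 19.7 ± 1.93 and Tead4 at 16.97 ± 1.11 CPM per kb also overlapped each other. Yap1 came next at 13.3 ± 0.470 CPM per kb, clear of its neighbours. Amotl2 at 9.46 ± 1.04 and Tead1 at 8.47 ± 0.499 CPM per kb overlapped, followed without overlap by Wwtr1 at 6.59 ± 0.410, Ankrd1 at 2.22 ± 0.273 and Lats2 at 0.934 ± 0.162 CPM per kb. YAP transcripts were thus more abundant per length than TAZ transcripts in every library. The lengths are unions of all annotated exons, which lowers the value of genes with long alternative ends such as Lats2. They were 9375 bases for Yap1, 11834 for Wwtr1 and 10486 for Lats2, so the gap between Yap1 and Wwtr1 depends partly on the lengths used. Before division by length, the means over the 9 libraries were 124.9 CPM for Yap1 and 78.0 CPM for Wwtr1.

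**Figure D1:**
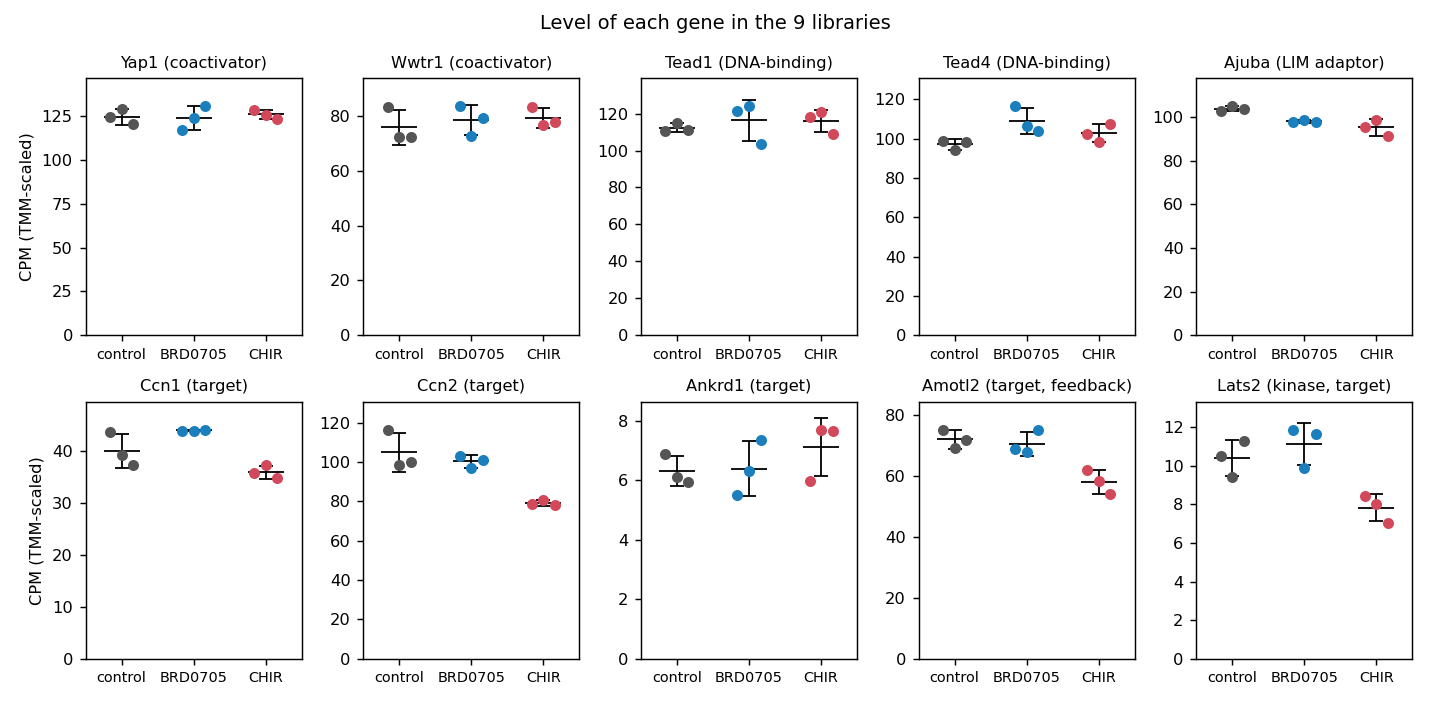
Level of the 10 genes in CPM (TMM-scaled, vertical axes from 0) in the 9 libraries, by group; points are libraries, bars the group mean and SD (n = 3). Ccn2, Amotl2 and Lats2 lie lower in all 3 CHIR libraries than in any other library, while Yap1, Wwtr1 and Tead1 overlap across groups.

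The transcripts of the pathway's nuclear effectors gave no call. Yap1, Wwtr1, Tead1 and Tead4 passed the test in none of the 3 comparisons (edgeR's quasi-likelihood test, Benjamini-Hochberg adjusted p under 0.05 over all 15366 genes), where 1.22% of all genes passed for BRD0705 against control, 6.30% for CHIR against control and 7.77% for BRD0705 against CHIR. Their log2 fold changes lay between -0.0227 and 0.17. At an unadjusted p under 0.05 there was 1 result among these 12, Tead4 with BRD0705.

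Yap1, the transcriptional coactivator that LATS kinases inhibit, was at 124, 129 and 120 CPM in control replicates 1 to 3, at 117, 124 and 131 CPM with BRD0705, and at 129, 126 and 124 CPM with CHIR. The groups overlapped, and the log2 fold change of CHIR against control had a 95% interval of -0.0996 to 0.13. Wwtr1 was at 83.3, 72.3 and 72.3 CPM in control, at 83.8, 72.7 and 79.3 CPM with BRD0705, and at 83.4, 76.7 and 77.8 CPM with CHIR. Its groups also overlapped, with an interval for CHIR against control of -0.0815 to 0.21. Changes within these intervals are not excluded. The intervals also do not mark the smallest change that would have passed, because the test adjusts p over all tested genes. The log2 fold change of Tead4 with BRD0705 against control had a 95% interval of 0.0456 to 0.29. That interval excludes 0, but Tead4 did not pass (edgeR adjusted p 0.162).

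Tead1 and Tead4 encode the factors that bring YAP and TAZ to DNA, and Tead4 is needed for trophectoderm in the embryo. Tead1 was at 111, 115 and 111 CPM in control, 121, 124 and 104 CPM with BRD0705, and 118, 121 and 109 CPM with CHIR. All 3 groups overlapped for Tead1. Tead4 was at 98.6, 94.0 and 98.5 CPM in control, 117, 107 and 104 CPM with BRD0705, and 102, 98.6 and 107 CPM with CHIR. Each BRD0705 library was above each control library, but the log2 fold change of 0.17 (SE 0.06) did not pass over all genes (edgeR adjusted p 0.162).

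CHIR was compared with control to ask what differs after 30 min with an inhibitor of both GSK3 enzymes. Ccn2, Amotl2 and Lats2, all targets of YAP and TAZ, fell, by 24.6%, 19.3% and 24.6%. Of the 10 genes 3 passed, all lower, where 3.78% of all tested genes were called lower and 2.52% higher. The 3 CHIR libraries lay wholly below control for 4 of the 10 genes and wholly above for 0, against 14.1% and 10.9% of all tested genes (25.1% together). The other 7 did not pass: Ccn1 and Ajuba had negative log2 fold changes and Ankrd1 a positive value, beside the 4 factors above. At an unadjusted p under 0.05 there were 5 of the 10 genes, and 20.5% of all genes. The median of the 10 log2 fold changes was -0.0543, beside -0.0091 for all tested genes.

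Ccn2 encodes CTGF, a secreted matrix-associated protein that is the most widely used readout of YAP activity. It was at 116, 98.3 and 100.3 CPM in control and at 78.8, 80.8 and 78.0 CPM with CHIR. The CHIR libraries lay close together and below every control library. The control mean was 105 ± 9.98 (SD, n = 3) and the CHIR mean 79.2 ± 1.48 CPM (SD, n = 3), and the log2 fold change was -0.41 (SE 0.06, adjusted p by edgeR 0.000825).

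Amotl2 encodes a junctional protein of the angiomotin family that binds YAP and holds it in the cytoplasm. It was at 75.1, 69.0 and 71.6 CPM in control and at 62.0, 58.1 and 54.0 CPM with CHIR, with no overlap. The log2 fold change was -0.31 (SE 0.06, adjusted p by edgeR 0.00758). Both Ccn2 and Amotl2 passed whichever library was left out.

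Lats2, the inhibitory kinase that is itself a target, was at 10.5, 9.44 and 11.3 CPM in control and at 8.42, 8.04 and 7.05 CPM with CHIR, from 129 to 229 counts per library in these groups. The groups did not overlap, and the log2 fold change was -0.41 (SE 0.11, adjusted p by edgeR 0.0407). This call was close to the threshold. When single libraries were left out it held in 2 of 9 fits (without BRD0705 replicate 2 or 3), with adjusted p values up to 0.171 without control replicate 3, and was lost with DESeq2 (adjusted p 0.0567).

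Ccn1 encodes CYR61, the matricellular relative of CTGF. It was at 43.7, 39.2 and 37.3 CPM in control and at 35.7, 37.3 and 34.8 CPM with CHIR, so that the groups touched. The log2 fold change of -0.16 (SE 0.07) did not pass (edgeR adjusted p 0.184), and it was -0.0829 after correction for GC content and gene length in every library.

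Ajuba, whose protein binds LATS and limits its activity, was at 103, 105 and 104 CPM in control and at 95.6, 98.9 and 91.5 CPM with CHIR. All CHIR values were below all control values, but its log2 fold change of -0.13 (SE 0.05) did not pass (edgeR adjusted p 0.174). Ankrd1, a muscle ankyrin repeat gene and a strong YAP target in fibroblasts, had 103 to 155 counts per library. These were the fewest of the 10 except in CHIR replicate 3, where Ankrd1 had 140 counts and Lats2 129. Ankrd1 was at 6.90, 6.10 and 5.96 CPM in control and at 5.98, 7.71 and 7.65 CPM with CHIR, with overlap. Its 95% interval, -0.13 to 0.46 on the log2 scale, does not include the estimates for Ccn2, Amotl2 or Lats2.

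**Figure D2:**
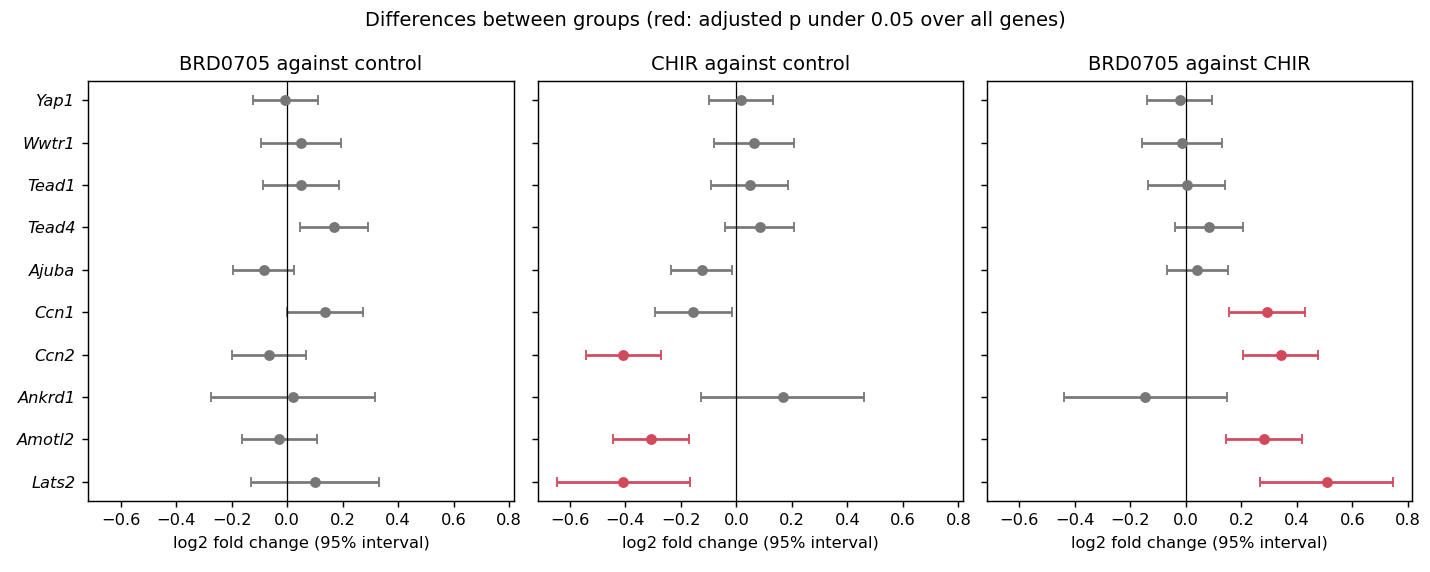
Log2 fold changes (points) with 95% intervals (bars) of the 10 genes in the 3 comparisons, from edgeR's fit over all 15366 genes; red marks an adjusted p under 0.05. Red points are 0 for BRD0705 against control, 3 for CHIR against control and 4 for BRD0705 against CHIR.

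BRD0705 was compared with control to ask the same of an inhibitor of GSK3α. None of the 10 genes passed the test, where 1.22% of all genes passed (0.690% higher and 0.534% lower). By edgeR 2 of the 10 had an unadjusted p under 0.05, as had 15.9% of all genes, and DESeq2 and limma voom also called 0. The BRD0705 libraries lay wholly above control for 2 genes, Ccn1 and Tead4, and wholly below for 1, Ajuba, against 9.83% and 10.4% of all tested genes (20.2% together). Ccn1 was at 44.0, 44.0 and 44.2 CPM with BRD0705, each above the highest control value of 43.7 CPM, with a log2 fold change of 0.14 (SE 0.06, adjusted p by edgeR 0.311). Ccn2 was at 103, 96.9 and 101 CPM, overlapping the lower control values, and its interval against control was -0.20 to 0.0668 on the log2 scale. Amotl2 was at 68.8, 67.7 and 75.0 CPM and overlapped control, with an interval of -0.16 to 0.11. Lats2 was at 11.9, 9.90 and 11.6 CPM, also with overlap, and Ankrd1 at 5.51, 6.32 and 7.36 CPM. Ajuba, at 97.6, 98.9 and 97.6 CPM, was below each control library, with a log2 fold change of -0.0842 (SE 0.05, adjusted p by edgeR 0.457).

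The inhibitors were also compared directly, a difference that shares the CHIR libraries with the comparison above. BRD0705 libraries had more Ccn1, Ccn2, Amotl2 and Lats2 than CHIR libraries, by 22.5%, 26.7%, 21.5% and 42.1%. These 4 of 10 genes passed, where 4.80% of all tested genes were called higher and 2.97% lower, and 0 of the 10 were lower. The same 4 had an unadjusted p under 0.05, as had 22.5% of all genes. For these 4 the ranges were separate, as for 13.7% of all tested genes in this direction, 12.9% in the other and 26.7% in either. Genes of the primitive endoderm marker list also had lower values with CHIR than with BRD0705. All 5 that were tested had positive log2 differences between BRD0705 and CHIR (median 0.28). Of these, 2 passed by edgeR, where 4.80% of all tested genes were called higher: Sox7 at 0.68 (adjusted p 0.0369) and Pdgfra at 0.53 (adjusted p 0.0299). All 5 were negative for CHIR against control (median -0.13), where none passed by edgeR and 2 had an unadjusted p under 0.05, as had 20.5% of all genes. These 5 summed to 20.3 to 20.8 CPM in control, 20.9 to 24.8 CPM with BRD0705 and 16.3 to 18.5 CPM with CHIR. Of the 6 tested trophectoderm markers, 5 had positive log2 differences between BRD0705 and CHIR (median 0.0945). For CHIR against control 5 of the 6 were negative (median -0.13), and none passed by edgeR in either comparison. Which cells carried the transcripts of either list, and the part of either list in the target differences, were not tested.

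The log2 difference was largest for Lats2, at 0.51 (SE 0.11, adjusted p by edgeR 0.0104). For Ccn2 it was 0.34 (SE 0.06, adjusted p by edgeR 0.00311). For Ccn1 it was 0.29 (SE 0.07, adjusted p by edgeR 0.0103). For Amotl2 it was 0.28 (SE 0.07, adjusted p by edgeR 0.0126). The calls of Ccn1 and Ccn2 held whichever of the 9 libraries was left out. That of Lats2 was lost without BRD0705 replicate 1 (adjusted p 0.0602), and that of Amotl2 without BRD0705 replicate 3 (0.0521) or CHIR replicate 3 (0.0644). After correction for GC content and length, Amotl2 did not pass (log2 difference 0.17, edgeR adjusted p 0.0845), and the other 3 did.

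Ajuba, Yap1, Wwtr1, Tead1, Tead4 and Ankrd1 did not pass between the inhibitors. The 95% intervals of the log2 difference were -0.0687 to 0.15 for Ajuba, -0.14 to 0.0936 for Yap1, -0.16 to 0.13 for Wwtr1, -0.14 to 0.14 for Tead1 and -0.0375 to 0.21 for Tead4. That of Ankrd1 was wider, from -0.44 to 0.15.

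Fibroblast markers, which feeder cells would carry, had higher values on average with both inhibitors, with more overlap with control for CHIR. The BRD0705 libraries lay wholly above control for 10 of the 14 markers and the CHIR libraries for 1. Over all tested genes these shares were 9.83% and 10.9%. Of the 14 fibroblast markers, 14 had a positive log2 fold change with CHIR and 13 with BRD0705, with medians of 0.19 and 0.23 against -0.0091 and -0.0038 over all tested genes. Col1a1 and Lox, which encodes the collagen cross-linking enzyme lysyl oxidase, passed the test in each comparison with control (log2 fold changes of 0.25 and 0.28 with CHIR, 0.31 and 0.33 with BRD0705). These 2 are 14.3% of the list, where 6.30% of all genes passed for CHIR against control and 1.22% for BRD0705 against control. None of the 14 passed between the inhibitors, where 7.77% of all genes did. The fibroblast marker score, the mean log2 CPM of the list, was 5.997 ± 0.07 (SD, n = 3) in control, 6.22 ± 0.02 with BRD0705 and 6.18 ± 0.18 with CHIR. CHIR replicate 3 had a score of 5.97, within the control range, and its Ccn2, Amotl2 and Lats2 levels were the lowest of the CHIR libraries.

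**Figure D3:**
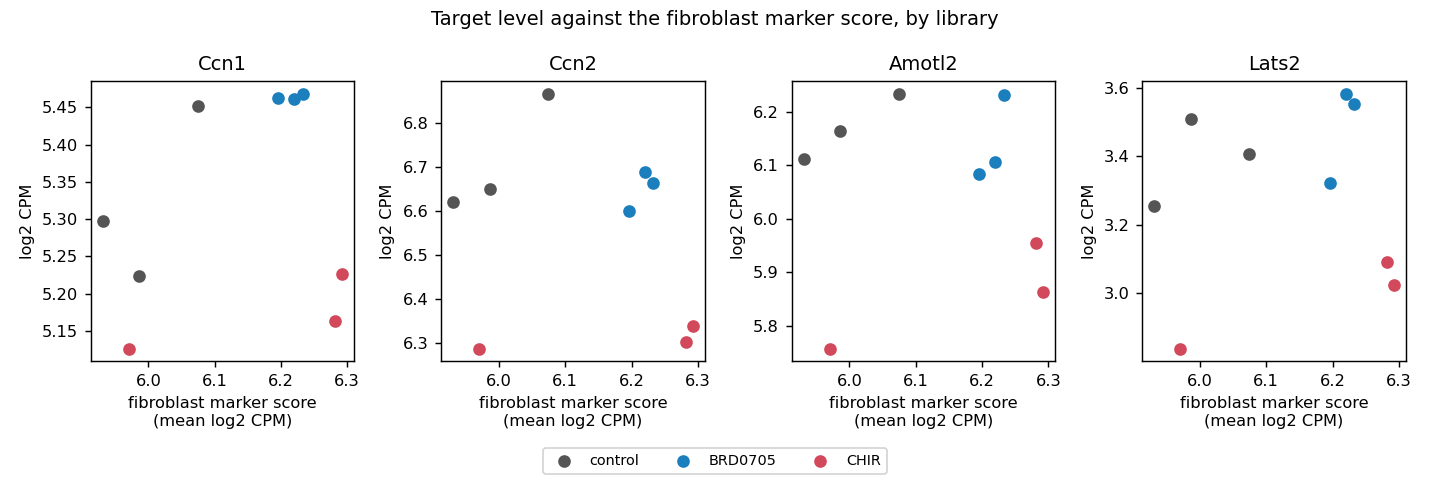
Log2 CPM of Ccn1, Ccn2, Amotl2 and Lats2 (vertical axes, not from 0) against the fibroblast marker score of the same library (horizontal axis, mean log2 CPM of 14 markers), coloured by group, 1 point per library. The CHIR libraries lie lowest for Ccn2, Amotl2 and Lats2 at scores both within (5.97) and above (6.28 and 6.29) the control range.

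With the score as a covariate, the log2 fold change of CHIR against control was -0.47 for Ccn2 (edgeR adjusted p 0.00614), -0.41 for Amotl2 (adjusted p 0.0111) and -0.56 for Lats2 (adjusted p 0.0608). These are larger in size than without it, while the Lats2 call was lost. The score itself differed between groups, so these values do not separate it from treatment. Within groups it varied most with CHIR (SD 0.18, against 0.07 in control and 0.02 with BRD0705), where replicate 3 was at 5.97. Between the inhibitors all 4 targets passed with the covariate, with log2 differences of 0.26 to 0.48. Over all 9 libraries no gene of the 10 passed a test of correlation with the score: Pearson's r ran from -0.335 for Ajuba to 0.479 for Wwtr1 (exact permutation tests, 2-sided, adjusted p 0.902 for each of the 10), and Spearman's coefficient from -0.35 to 0.483 (exact permutation, adjusted p 0.847 to 0.912). Without control replicate 2 and CHIR replicate 3, the libraries farthest from the median score, r was -0.667 for Ccn2, -0.647 for Amotl2, -0.534 for Lats2, -0.0712 for Ccn1 and -0.912 for Ajuba. Within groups, as deviations from the group means over the same 9 libraries, r was 0.551 for Ccn1, 0.479 for Ccn2, 0.772 for Amotl2, 0.651 for Lats2, 0.677 for Ajuba and -0.141 for Ankrd1, values given without a test. The part that feeder cells play in the level of any of these genes was not tested beyond these values.

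The rest of the pathway gave calls in both directions. Of 57 further genes in 4 lists, 54 were tested. None passed for BRD0705 against control, where 1.22% of all genes did. By edgeR 6 of the 54 had an unadjusted p under 0.05, beside 15.9% of all genes, and DESeq2 and limma voom called 0. For CHIR against control 5 passed, 3 higher and 2 lower, which is 9.26% of those tested against 6.30% of all genes. For BRD0705 against CHIR 4 passed, 2 in each direction, or 7.41% against 7.77%. Their median log2 fold changes were 0.0110, 0.0090 and 0.0388.

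Among 18 kinases and adaptors, Lats1, the paralog of Lats2, rose with CHIR. It was at 22.2, 24.1 and 22.5 CPM in control, 25.6, 24.3 and 25.3 CPM with BRD0705 and 26.7, 27.6 and 29.6 CPM with CHIR. All CHIR values were above all others, and the log2 fold change against control was 0.29 (SE 0.07, adjusted p by edgeR 0.0176). The paralogous kinases thus passed in opposite directions. The Lats1 call was lost without control replicate 1 or 3 or CHIR replicate 2 or 3. Frmd6, a FERM-domain activator of the cascade, fell by 0.24 on the log2 scale (edgeR adjusted p 0.0495), a call lost in 19 of 21 alternatives, among them every fit that left out a library, DESeq2 (adjusted p 0.101), limma voom (0.0628), the replicate block (0.0558) and the fibroblast covariate (0.166). Mob1b, a LATS cofactor, was lower with BRD0705 than with CHIR by a log2 difference of -0.35 (SE 0.09, adjusted p by edgeR 0.0281). This call was lost without BRD0705 replicate 1 or 3 or CHIR replicate 1 or 2. Scaling by library size alone also ended it (edgeR adjusted p 0.0553).

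Among 16 junction and polarity regulators, Rassf1, a scaffold of the MST kinases, rose with CHIR. Its mean was 11.6 ± 0.565 CPM in control, 11.3 ± 0.770 with BRD0705 and 15.3 ± 1.43 with CHIR (n = 3, SD). The log2 fold change was 0.40 (SE 0.09, adjusted p by edgeR 0.0161), and it also passed between the inhibitors (log2 difference -0.43, edgeR adjusted p 0.00990). Leaving out control replicate 2 or CHIR replicate 1 or 2 ended the first call, as did the fibroblast covariate (adjusted p 0.291), and leaving out BRD0705 replicate 1 or CHIR replicate 1 the second.

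Among the other TEAD and VGLL factors, Vgll3, a TEAD cofactor, was lower with CHIR. It was at 9.37, 8.62 and 9.51 CPM in control, 9.68, 11.5 and 9.17 CPM with BRD0705 and 6.83, 6.39 and 6.67 CPM with CHIR. The 3 CHIR libraries were the lowest of the 9. Its log2 fold change with CHIR was -0.47 (SE 0.12, adjusted p by edgeR 0.0215) and its difference between BRD0705 and CHIR 0.60 (SE 0.12, adjusted p by edgeR 0.00351). The second call held whichever library was left out. The first was lost without control replicate 1 or 3 or CHIR replicate 2 or 3, and with the fibroblast covariate (adjusted p 0.147). Tead2, at 26.4 CPM per kb over the 9 libraries against 16.97 CPM per kb for Tead4, was the most abundant TEAD transcript per length and did not pass in any comparison.

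Of 17 other genes of a published YAP and TAZ target signature, 16 were tested, and 1 passed in each comparison that involved CHIR, which is 6.25% against 6.30% (CHIR against control) and 7.77% (BRD0705 against CHIR) of all genes. F3, the tissue factor gene, rose with CHIR by 0.43 (SE 0.12) on the log2 scale, with an edgeR adjusted p of 0.0407. This call held when BRD0705 replicate 2 or 3 or CHIR replicate 3 was left out and was lost without any of the other 6 libraries. It was also lost with the replicate block (adjusted p by edgeR 0.0564), with scaling by library size alone (0.0629) and with the fibroblast covariate (0.272). Arhgef17 was at 83.1, 78.2 and 77.3 CPM with BRD0705 and at 63.7, 66.3 and 65.1 CPM with CHIR. The log2 difference was 0.29 (SE 0.06, adjusted p by edgeR 0.00505), and the gene did not pass after the correction for GC content and length (edgeR adjusted p 0.0573). The remaining signature genes that were tested, among them Axl, Myof, Crim1 and Ptpn14, passed in no comparison.

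**Figure D4:**
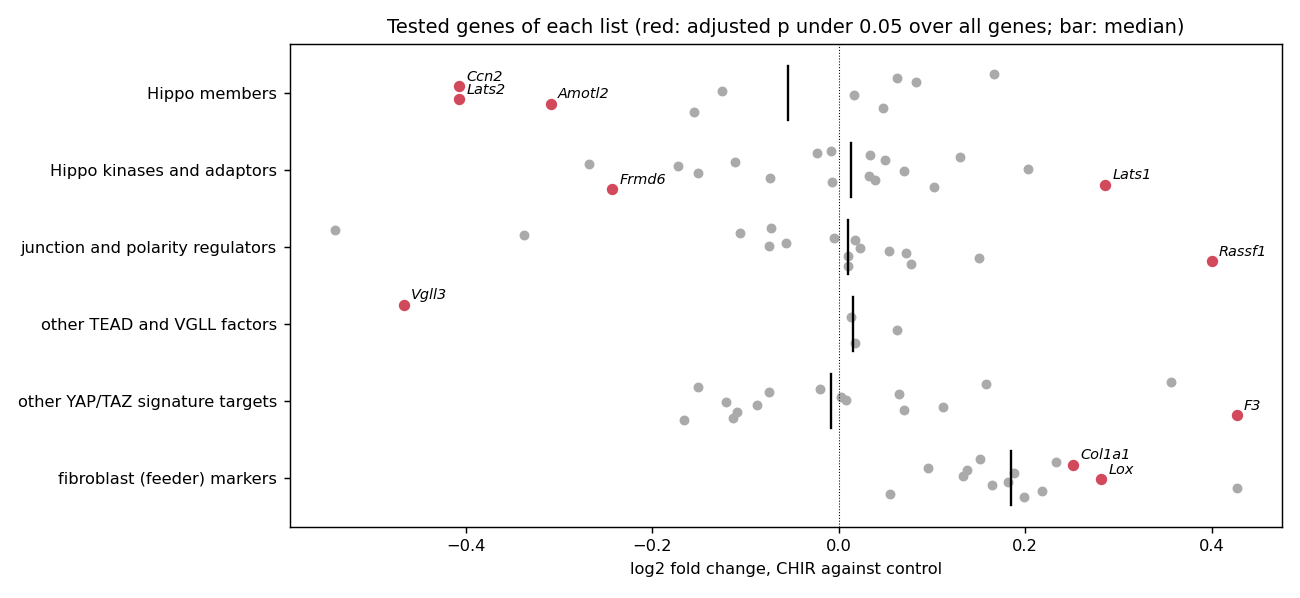
Log2 fold change of CHIR against control (horizontal axis) for the tested genes of the 10-gene set, of the 4 further pathway lists and of the fibroblast markers; points are genes, bars list medians, and red marks an adjusted p under 0.05 with the gene's name. Ccn2, Lats2, Amotl2, Vgll3 and Frmd6 are red on the left, and Lats1, Rassf1, F3, Col1a1 and Lox on the right.

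Across the 9 libraries, the log2 CPM values of Ccn2, Amotl2 and Lats2 followed each other, with Pearson's r of 0.917 for Ccn2 and Amotl2, 0.913 for Amotl2 and Lats2 and 0.847 for Ccn2 and Lats2. Ccn1 had an r of 0.805 with Ccn2. Ankrd1 had negative values with all 4, from -0.508 with Lats2 to -0.188 with Ccn1. These values are a description, since the genes share libraries, scaling and the group differences above. Of 12407 genes searched, those most like Ccn2 were Zfp27, Hexim1 and Thpo (r of 0.978, 0.977 and 0.973). For Ccn1 they were Ptpru, Usp27x and Rhbdd2 (0.956 to 0.961), for Amotl2 D2hgdh, Arfgap1 and Btbd6 (0.967 to 0.980), and for Lats2 Sike1, Clmp and Mepce (0.953 to 0.962). Among the factors, Tead4 was most like Kat2a, Fgd1 and Midn (0.963 to 0.974), Ajuba most like 2810002D19Rik, Clk1 and Jam2 (0.957 or more), and Yap1 most like Poglut3, 2210408I21Rik and Fbxl17 (0.934 to 0.937). The highest r of each of the 10 genes lay between 0.933 and 0.980.

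In GRCm38.p6, the build that RefSeq's table uses, the targets lie on chr3:145646971-145649985 (Ccn1), chr10:24595442-24598683 (Ccn2), chr19:36111965-36119844 (Ankrd1), chr9:102717091-102733418 (Amotl2) and chr14:57689662-57746212 (Lats2). The factors lie on chr9:7931999-8004638 (Yap1), chr3:57455644-57575910 (Wwtr1), chr7:112679356-112906784 (Tead1), chr6:128227143-128300813 (Tead4) and chr14:54567469-54577661 (Ajuba). Reads of a few neighbours could be shared with these genes, since the use of strand in the counting is not given. The antisense RNA genes Gm15270 at Ccn2 and Gm17501 at Ccn1 had 537 and 121 counts over all libraries, against 16658 and 7009 for Ccn2 and Ccn1. Gm49361, on the strand of Lats2 and identical to it over 2742 bases, had 68 counts against 1722 for Lats2. Of the other 7 genes none overlapped a row with counts in the exons compared.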

How the data were processed

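RNA sequencing libraries (9, in 3 groups of 3) were analysed from 2 tables. The first holds raw counts by gene symbol, deposited by the authors as whole numbers. The second, also deposited, is a signal table in which the counts of a library are divided by its size factor (constant to within 9.98e-10). RSEM, DESeq2 and mm10 are named, without roles or versions, in the submitters' processing notes; aligner, annotation and strand use are not given in the sources used here. Per the labels, the RNA was polyA RNA but the kit depleted ribosomal RNA, which was not resolved.

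Counts were tested with edgeR 4.0.16 (R 4.3.3), using TMM factors, filterByExpr (minimum count 10) and quasi-likelihood F tests on a fit of 3 group means to all 9 libraries, with 6 residual degrees of freedom and a common dispersion of 0.00356. Tests were 2-sided, and p-values were adjusted by Benjamini-Hochberg over 15366 genes, with a threshold of 0.05. Each SE came from the F statistic, and log2 CPM used a prior count of 2. The fit was also run on simulated counts with known changes, which checks the code and not the results above.

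Gene lengths and GC content came from GENCODE vM39, and coordinates and promoters from RefSeq (GRCm38.p6). The members, gene lists and tests were chosen with earlier results of these data known. Besides the 10 genes, the text names pathway genes that passed in any comparison, marker genes, and the 3 genes most like a member in log2 CPM (those with a mean of at least 1). Axl, Myof, Crim1, Ptpn14 and Tead2 were named after their values were seen. Replicate libraries were not copies of each other: chi-square per degree of freedom was 3.37 to 7.89 over the 9 pairs within groups.

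Alternatives were a replicate block, DESeq2 1.42.0, limma 3.58.1 with voom, median-of-ratios size factors, scaling by library size alone, no filter on low counts, a filter at mean CPM 1, a fit to the compared groups alone, limma on the deposited normalized signal as log2(value + 1), the fibroblast score as covariate, an offset for GC content and exon length (a spline of 5 degrees of freedom for each), the offset and the block together, and leaving out each library.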

Additional observations from a re-analysis of the deposited data

How the results depend on the processing

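Of the 10 genes, 0 passed for BRD0705 against control under every alternative, 2 to 3 for CHIR against control and 3 to 4 for BRD0705 against CHIR. The counts over all genes moved more. For BRD0705 against control 188 genes passed, and 477 with DESeq2, 609 without the filter on low counts, 2 with the fibroblast score as covariate, 118 with the GC and length offset and 118 with that offset and the replicate block. For CHIR against control 968 passed, and 266 with the covariate, 1524 with the offset and 1480 with offset and block. When single libraries were left out, the counts ran from 21 to 305 for BRD0705 against control, 514 to 1070 for CHIR against control and 616 to 1313 for BRD0705 against CHIR. Of the further pathway genes, 5 passed for CHIR against control, 3 with the replicate block and 1 with the covariate; with single libraries left out, 0 to 1, 0 to 4 and 2 to 5 passed in the 3 comparisons. The cause of these shifts was not tested, and the fits without a library also had fewer libraries.

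No pairing by replicate number was seen in deviations from the group means. They correlated with a mean r of -0.00119 over 9 pairs with the same number (-0.0897 to 0.0802) and 0.000622 over 18 pairs with different numbers. These means are tied to each other, since deviations cancel within a group. Of 18 best matches in another group, 8 had the same number, a count given without a test. With the replicate block 222, 973 and 1177 genes passed in the 3 comparisons.

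Small log2 fold changes that had not passed changed sign, and the cause was not tested. For BRD0705 against control, the covariate gave -0.0716 for Lats2, -0.0266 for Wwtr1 and -0.0029 for Tead1. Yap1 was at 1e-04 with median-of-ratios size factors, 7e-04 with the mean CPM filter, 0.0267 with the offset and 0.0263 with offset and block, and Rassf1 at 0.0172 and 0.0171 with the latter 2. For CHIR against control, Yap1 was at -0.0096 with library size alone and Wwtr1 at -8e-04 with the covariate. For BRD0705 against CHIR, library size alone gave 0.0091 for Yap1 and 0.0174 for Wwtr1. The offset, without and with the block, gave -0.0779 and -0.0778 for Ajuba, -0.0025 and -0.0023 for Tead4, and -0.0253 and -0.026 for Tead1. Tead1 was also at -0.0012 with DESeq2, -0.0014 with voom, -0.0047 with size factors, -0.0069 on the deposited normalized values and -0.0044 with the covariate. With single libraries left out, BRD0705 against control ran from -0.1015 to 0.0174 for Ccn2, -0.0888 to 0.1204 for Ankrd1, -0.0663 to 0.007 for Amotl2, -0.0383 to 0.0371 for Yap1 and -0.0794 to 0.0104 for Rassf1. CHIR against control ran from -6e-04 to 0.0519 for Yap1. BRD0705 against CHIR ran from -0.062 to 0.0128 for Yap1, -0.0668 to 0.0371 for Wwtr1 and -0.0483 to 0.083 for Tead1. Depth limits Ankrd1 and Lats2 most, at 103 to 155 and 129 to 245 counts per library.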
